A study of Mus musculus with 8 samples.

Results

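The chemokine ligands described here are 10 genes: Ccl2, Ccl6, Ccl7, Ccl8, Ccl9, Ccl11, Ccl24, Cxcl12, Cx3cl1 and Cxcl16. They were chosen by name as ligands of the chemokine family, with earlier results of these data known. All 10 were found among the 39056 genes of the deposited table, which also held 30 other chemokine ligands. RNA was sequenced from the hearts of 4 HVCN1 null and 4 wild-type (WT) mice, with 1 library per heart. All were males aged 3 months, the strain given was C57BL/6, and no treatment was given beyond the gene knockout, so the comparison asked what loss of the HVCN1 proton channel changed in the heart. HVCN1 null hearts are numbered 1 to 4 and WT hearts 5 to 8. The knockout was in the whole animal and the RNA came from heart tissue of all cell types, so the cells that made each transcript are not known. Fewer cells of a type and less RNA per cell cannot be told apart in such samples.

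Chemokines are small secreted proteins that bind G protein-coupled receptors on leukocytes and set the direction in which these cells move. The C-C ligands mainly draw monocytes, macrophages, eosinophils and T cells, whereas Cxcl12 is made in most tissues at rest and holds cells that carry Cxcr4 in place. Cx3cl1 and Cxcl16 differ in form, since each is made as a membrane protein and can be released by proteases. In the heart, resident macrophages, fibroblasts and endothelial cells are the usual sources. HVCN1 itself is best known from phagocytes, where it lets protons out during the respiratory burst.

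Hvcn1 (ENSMUSG00000064267) gave 6, 6, 1 and 3 counts in HVCN1 null hearts 1 to 4 and 102, 49, 99 and 68 counts in WT hearts 5 to 8, in accord with the labels. Libraries held 25851255 to 36396297 counts for HVCN1 null and 32595114 to 38874640 for WT. Of the 14796 genes kept for the test, 169 were differentially expressed genes (DEGs), that is, genes with an edgeR quasi-likelihood adjusted p under 0.05. The hearts differed in their content of atrial RNA. An atrial score, the mean log2 CPM (counts scaled to library size) of 6 atrial genes, was 3.38, 8.87, 6.62 and 4.34 in HVCN1 null hearts and 6.72, 0.64, 9.70 and -0.05 in WT hearts. WT hearts 6 and 8 had the lowest scores, and HVCN1 null hearts 1 and 4 came next. Summed CPM of these genes was 126 and 86.8 in WT hearts 6 and 8. It was 320 and 323 in HVCN1 null hearts 1 and 4, and 3260 to 8467 in the other hearts. Values without WT hearts 6 and 8 are given where they matter. Such fits set 4 HVCN1 null hearts, with hearts 1 and 4 low, against WT hearts 5 and 7, both high. Atrial content is then unbalanced between the groups. Heart muscle RNA was plentiful in every heart, and summed CPM of 6 cardiomyocyte markers ran from 47267 to 61152.

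None of the 10 ligands was a DEG. All 10 were kept for the test, 0 were called against 1.14% of all tested genes, and 3 (Ccl6, Ccl9 and Ccl11) had an unadjusted p under 0.05, a level that 11.0% of all tested genes reached. The 2 groups of hearts did not overlap for 1 of the 10 ligands, Ccl11, and for 7.06% of all tested genes. A negative log2 fold change of HVCN1 null over WT was found for 6 ligands and a positive one for 4, with a median of -0.11, beside -0.01 over all tested genes, of which 52.7% had a negative value. These signs were the same with 2 other scalings of the libraries. On the same counts edgeR's exact test, its likelihood ratio test and DESeq2 each called 1 ligand, Ccl11, and limma voom called 0.

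**Figure D1:**
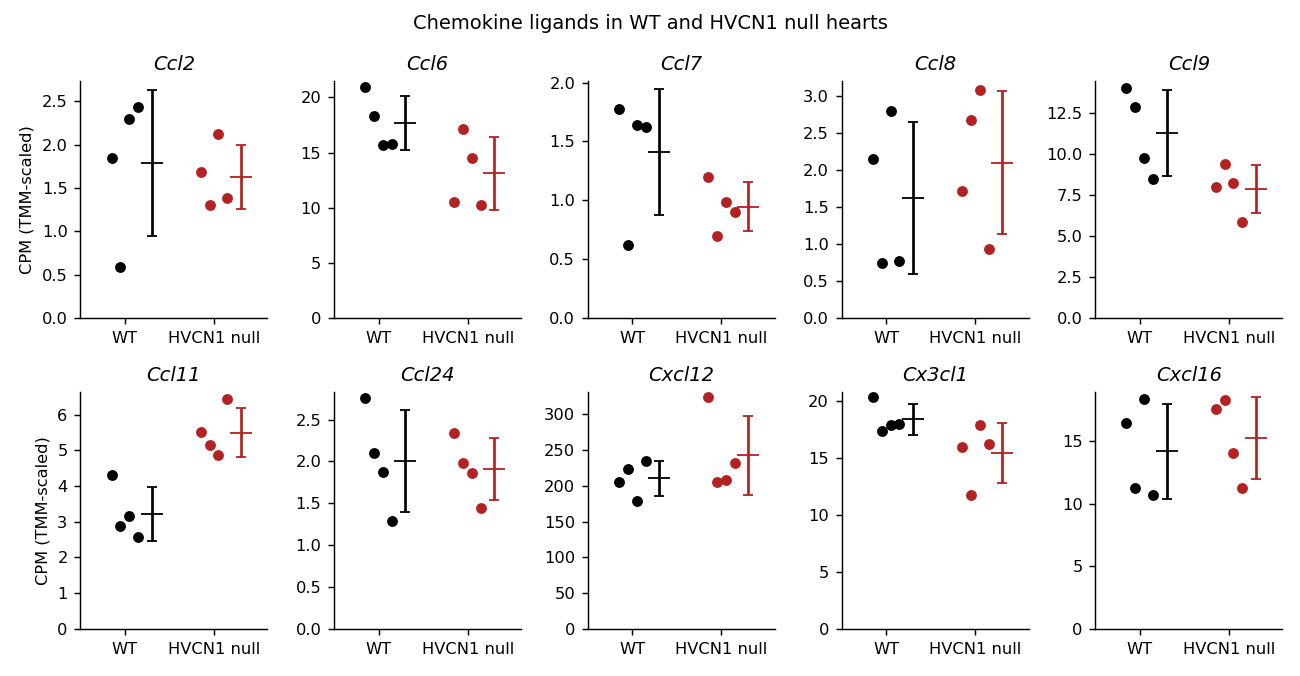
CPM of each of the 10 chemokine ligands (vertical axis, starting at 0 in each panel) in 4 WT hearts (black, hearts 5 to 8 from left to right) and 4 HVCN1 null hearts (red, hearts 1 to 4), with the mean and SD beside the points. The groups are apart only for Ccl11 (4.86 to 6.44 CPM against 2.57 to 4.30 CPM), while for Ccl8 and Cxcl16 the spread within each group exceeds the difference between the groups.

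The stretch before the start of transcription was found for 5 of the 10 ligands in the RefSeq promoter table of GRCm38.p6. It is shown for the 4 whose window lies wholly outside the annotated gene, which are Cxcl12, the most abundant ligand, Ccl6, Ccl8 and Ccl9. The other C-C ligands had no entry. The 250 bases before the start are printed 5′ to 3′ on the strand of the gene, and capitals mark CpG dinucleotides. They lie at chr6:117168285-117168534 on the plus strand for Cxcl12, at chr11:83593088-83593337 on the minus strand for Ccl6, at chr11:83578637-83578886 on the minus strand for Ccl9 and at chr11:82114935-82115184 on the plus strand for Ccl8.
Cxcl12: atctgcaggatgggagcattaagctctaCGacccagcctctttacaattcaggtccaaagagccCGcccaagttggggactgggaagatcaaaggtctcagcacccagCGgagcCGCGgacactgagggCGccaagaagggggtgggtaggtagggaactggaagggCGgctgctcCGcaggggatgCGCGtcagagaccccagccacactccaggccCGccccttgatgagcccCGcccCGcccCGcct
Ccl6: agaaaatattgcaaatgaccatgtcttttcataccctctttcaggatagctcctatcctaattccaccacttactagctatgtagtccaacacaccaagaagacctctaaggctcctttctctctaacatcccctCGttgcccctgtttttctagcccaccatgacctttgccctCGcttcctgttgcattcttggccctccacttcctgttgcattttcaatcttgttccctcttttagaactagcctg
Ccl9: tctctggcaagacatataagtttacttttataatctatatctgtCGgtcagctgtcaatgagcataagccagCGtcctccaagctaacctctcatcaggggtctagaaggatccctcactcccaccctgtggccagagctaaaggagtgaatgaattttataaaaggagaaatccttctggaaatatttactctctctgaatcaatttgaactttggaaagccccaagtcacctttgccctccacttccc
Ccl8: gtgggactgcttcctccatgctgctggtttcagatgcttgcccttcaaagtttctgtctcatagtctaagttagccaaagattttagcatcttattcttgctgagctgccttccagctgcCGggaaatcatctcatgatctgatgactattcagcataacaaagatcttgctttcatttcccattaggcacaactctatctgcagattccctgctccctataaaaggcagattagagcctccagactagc
Cxcl12 held 14 CpG in this stretch and 64.4% G and C. Cx3cl1, whose window lies partly inside its annotated gene and is not printed, also held 14 CpG, with 64.8% G and C. Ccl6 and Ccl9 held 2 each and Ccl8 held 1, with 43.6% to 45.2% G and C. Across all 32851 windows of this length the median was 6 CpG, and 29.4% of windows held at least 14.

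A set of 3 motifs was searched on both strands of these windows. TATAAA was found in 12.4% of all windows, a STAT6-type motif in 5.85% and an NF-kB motif in 7.25%. In Ccl8, TATAAA began 32 bases before the start. Ccl9 held 3 matches of TATAAA, at 92, 94 and 224 bases before the start, the nearer 2 overlapping on opposite strands, and 1 NF-kB match (GGGGCTTTCC, minus strand) at 35 bases before it. Cx3cl1 held TATAAA at 6 bases before the start, and Ccl6 and Cxcl12 held none of the 3 motifs. A match here describes letters in a window and not a bound site.

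Levels were compared between genes per kilobase of exon (RPKM, from scaled library sizes), as means of all 8 hearts. Cxcl12 was by far the most abundant, at 27.7 ± 5.29 RPKM (SD), which was 45.5% of the summed RPKM of the 10 ligands and 3.23 times Ccl6. Ccl6 followed at 8.58 ± 2.03 RPKM. A middle group held Cxcl16 at 4.87 ± 1.10, Cx3cl1 at 4.31 ± 0.637, Ccl11 at 4.03 ± 1.28, Ccl8 at 3.64 ± 1.88 and Ccl9 at 3.14 ± 0.875 RPKM, and neighbours in this order differed by less than their spread. Lowest were Ccl24 at 1.51 ± 0.363, Ccl2 at 1.50 ± 0.534 and Ccl7 at 1.47 ± 0.562 RPKM, which could not be ranked among themselves. The level in the highest heart was 1.71 to 1.81 times that in the lowest for Cxcl16, Cx3cl1 and Cxcl12, and 4.14 and 4.15 times for Ccl2 and Ccl8.

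**Figure D2:**
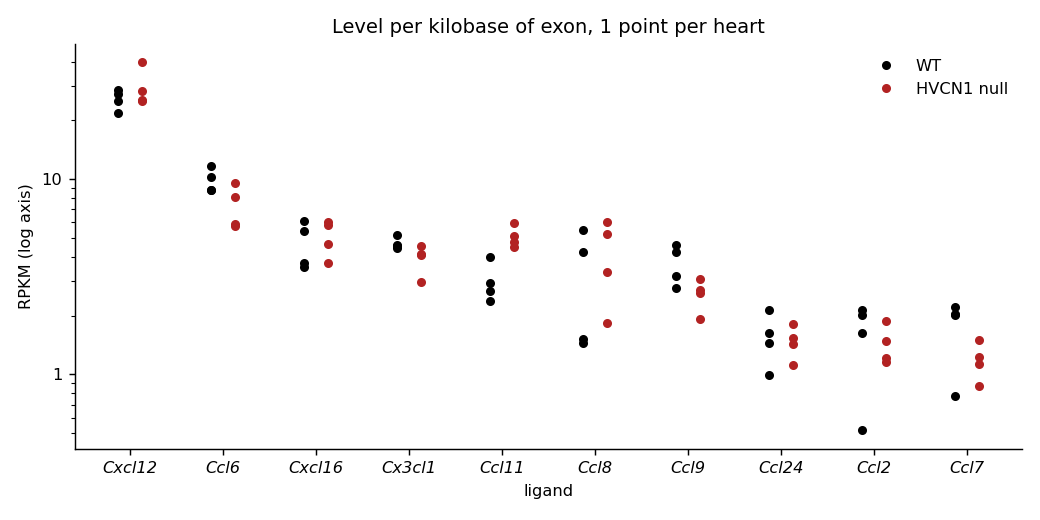
RPKM of the 10 ligands on a log axis, ordered by their mean over all hearts, with 1 point per heart (WT black, HVCN1 null red). Cxcl12 lies above every other ligand in all 8 hearts, and Ccl24, Ccl2 and Ccl7 lie at the bottom.

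Ccl11 showed the largest difference of the 10 ligands. Ccl11 (eotaxin-1, ENSMUSG00000020676) draws eosinophils through the receptor Ccr3 and is known to be made by fibroblasts and other stromal cells. HVCN1 null hearts had 5.52, 5.14, 4.86 and 6.44 CPM and WT hearts 4.30, 2.87, 3.17 and 2.57 CPM. Every HVCN1 null heart was above every WT heart, and the mean was 70.1% higher (5.49 ± 0.690 against 3.23 ± 0.757 CPM, SD). On the log2 scale the difference was 0.76 (SE 0.18, 95% interval 0.36 to 1.16). Its edgeR quasi-likelihood adjusted p was 0.0960 (unadjusted p = 0.00167). The two-sided exact permutation p of the CPM, not adjusted over the ligands, was 0.0286, the smallest that 70 assignments can give. The call depended on the test, since the adjusted p was 0.0221 with edgeR's exact test, 0.0209 with its likelihood ratio test and 0.00682 with DESeq2.

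WT heart 5, the highest WT heart, also bore on the Ccl11 call, and leaving it out gave a value of 0.94 (edgeR quasi-likelihood adjusted p = 0.0436). Over 18 alternative fits the log2 fold change ran from 0.67 to 0.94 and the adjusted p from 0.00682 to 0.282, with 4 calls. Without WT hearts 6 and 8, the 2 lowest in Ccl11, it was 0.56 (adjusted p = 0.485). With the atrial score as a term in the edgeR model it was 0.74 (adjusted p = 0.0914). Ccl11 came to 732 counts in HVCN1 null and 459 in WT hearts, and no other gene shared a near-identical stretch with it.

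Ccl24 (eotaxin-2, ENSMUSG00000004814), a ligand of the same receptor that is made largely by macrophages, showed little difference between the groups. HVCN1 null hearts had 2.34, 1.98, 1.86 and 1.44 CPM and WT hearts 2.76, 2.10, 1.88 and 1.28 CPM, with full overlap. Its log2 fold change was -0.08 (95% interval -0.64 to 0.49, edgeR quasi-likelihood adjusted p = 0.967), and its sign turned when HVCN1 null heart 4 or WT heart 5 was left out. Ccl24 lies on the same chromosome as Hvcn1, chromosome 5, at a distance of 13.3 Mb.

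The receptor of both eotaxins and eosinophil markers were almost without reads. Ccr3 had 3 counts over all 8 hearts, and none of 6 eosinophil markers was kept for the test. The summed CPM of these markers was 0.107 to 0.339 in the HVCN1 null and 0.247 to 0.709 in the WT group, and 1 of them was at 0 in every heart. Mast cells, which also can carry Ccr3, gave more RNA, with 5 of 5 tested markers positive (median log2 fold change 0.40), 2 at an unadjusted p under 0.05 (11.0% of all tested genes) and 0 called by any of the 5 tests run (1.14% of all tested genes by the quasi-likelihood test). Their summed CPM was 9.83 to 12.4 in HVCN1 null and 7.09 to 8.81 in WT hearts, without overlap, and Cma1, a mast cell chymase, had a log2 fold change of 1.11 (SE 0.39, edgeR quasi-likelihood adjusted p = 0.282). The part of mast cells in the Ccl11 difference was not tested. Fibroblast markers had a median log2 fold change of -0.16, with 0 of 7 called.

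Ccl6 and Ccl9, a pair of neighbouring genes that encode rodent ligands of Ccr1 made by macrophages and other myeloid cells, were both lower on average in HVCN1 null hearts without passing the test. Ccl6 (ENSMUSG00000018927) was at 10.5, 17.1, 14.5 and 10.3 CPM in HVCN1 null hearts and at 20.9, 18.3, 15.7 and 15.8 CPM in WT hearts. HVCN1 null heart 2 lay within the WT range and the others below it. It differed by a log2 fold change of -0.43 (SE 0.17, 95% interval -0.82 to -0.05, edgeR quasi-likelihood adjusted p = 0.375, exact permutation p = 0.114). Ccl9 (ENSMUSG00000019122) had 7.96, 9.36, 8.25 and 5.88 CPM in HVCN1 null hearts and 14.0, 12.8, 9.76 and 8.44 CPM in WT hearts. Only WT heart 8 fell among the HVCN1 null hearts, below heart 2. Its log2 fold change was -0.52 (SE 0.19, 95% interval -0.94 to -0.10, adjusted p = 0.306, exact permutation p = 0.0571).

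In none of the 18 alternative fits was Ccl6 or Ccl9 called, with adjusted p from 0.161 to 0.733 for Ccl6 and from 0.187 to 0.733 for Ccl9. Without WT hearts 6 and 8 the log2 fold changes were -0.48 and -0.60. Macrophage markers had the same sign. All 16 tested had a negative log2 fold change (median -0.31), with 5 at an unadjusted p under 0.05 and 0 called by any of the 5 tests run. Of all tested genes, 52.7% had a negative value, 11.0% such a p and 1.14% a call. The summed marker CPM was 276 to 352 in HVCN1 null and 321 to 442 in WT hearts. Fcgr1 and Adgre1, a macrophage Fc receptor and the F4/80 antigen, had the largest, at -0.63 and -0.52. With a macrophage score, the mean log2 CPM of these markers, as a term in the edgeR model, the values were -0.19 for Ccl6 and -0.20 for Ccl9 (adjusted p = 0.733 for each). The score was 3.63, 3.73, 3.70 and 3.34 in HVCN1 null hearts and 4.02, 3.83, 4.11 and 3.65 in WT hearts. All WT hearts but heart 8 were above every HVCN1 null heart. Fits with this score therefore cannot cleanly separate it from genotype, here and for the genes below. A stretch of the Ccl9 transcript is near-identical to transcripts of 10 other genes (at least 95% over 50 bases), so a share of its reads could be split between genes, whereas Ccl6 had no such copy.

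The receptor Ccr1 was a DEG, unlike its ligands. Ccr1, which is carried by monocytes, macrophages and neutrophils, had 0.540, 0.803, 0.418 and 0.509 CPM in HVCN1 null hearts and 2.78, 1.79, 2.20 and 1.11 CPM in WT hearts. Its groups did not overlap, and it fell by 1.78 on the log2 scale (SE 0.32, edgeR quasi-likelihood adjusted p = 0.0304). The call depended on single hearts, and was lost when HVCN1 null heart 1, 3 or 4 or WT heart 5, 6 or 7 was left out (adjusted p up to 0.102). On all hearts, limma voom did not call Ccr1 (adjusted p = 0.0512). It was called by edgeR's exact test (adjusted p = 0.000166), its likelihood ratio test (0.000135) and DESeq2 (0.000156). With the macrophage score in the model the log2 fold change of Ccr1 was -1.17 (adjusted p = 0.174). Without WT hearts 6 and 8 it was -2.11 (adjusted p = 0.0427). Neutrophil markers had a median log2 fold change of -0.62, with 0 of 3 tested called, beside 1.14% of all tested genes. All 3 were negative, as were 52.7% of all tested genes. Their summed CPM was 2.70 to 13.4 in HVCN1 null and 5.10 to 19.2 in WT hearts. The part of neutrophils in the Ccr1 difference was not tested.

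Among all chemokine receptors, 24 were in the table, 12 were kept for the test and 2 were called, both lower, Ccr1 among them, beside 1.14% of all tested genes. Of these 12, 5 had an unadjusted p under 0.05 and groups without overlap, all of them lower in HVCN1 null hearts, beside 11.0% and 7.06% of all tested genes. The 5 tested signalling receptors of the 10 ligands had a median log2 fold change of -1.30, beside -0.11 for the ligands and -0.01 for all tested genes.

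**Figure D3:**
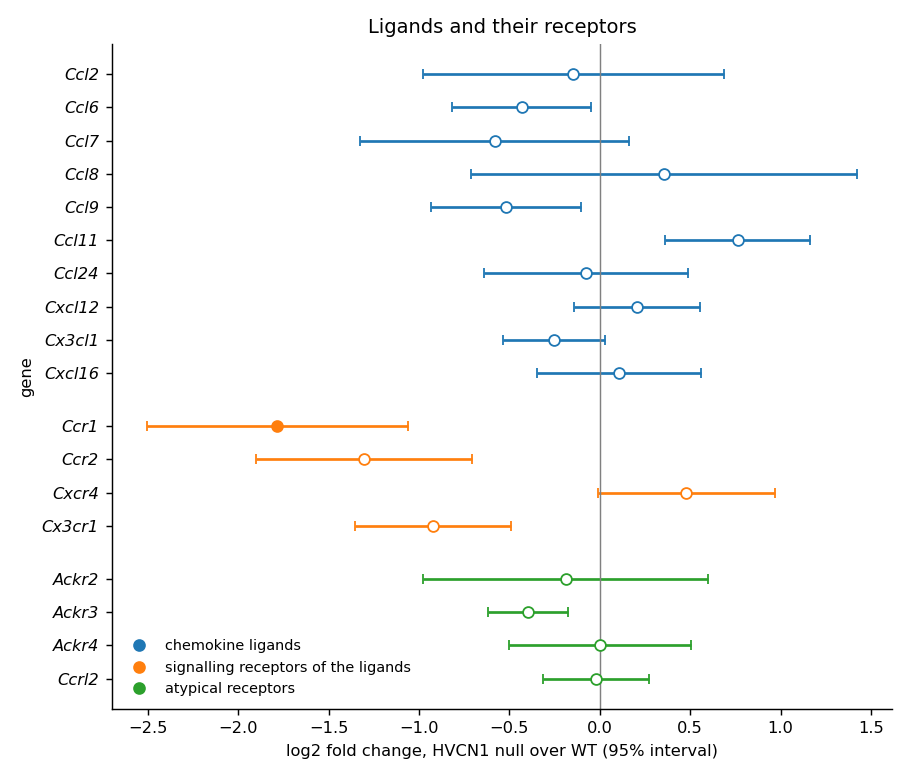
Log2 fold change of HVCN1 null over WT with its 95% interval from edgeR's quasi-likelihood fit, for the 10 ligands (blue), 4 signalling receptors (orange) and 4 atypical receptors (green). The filled point is a DEG, Ccr1 at -1.78, and no ligand point is filled.

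Ccl2 and Ccl7 encode the monocyte chemoattractants that act through Ccr2 and bring monocytes out of the bone marrow. Ccl2 (ENSMUSG00000035385) was at 1.68, 1.31, 2.13 and 1.38 CPM in HVCN1 null hearts and at 1.85, 0.587, 2.30 and 2.43 CPM in WT hearts. The HVCN1 null hearts lay inside the WT range, which WT heart 6 widened at its low end. On the log2 scale the difference was -0.15 (SE 0.38, 95% interval -0.98 to 0.69, edgeR quasi-likelihood adjusted p = 0.953), and its sign turned without WT heart 7 or 8.

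Ccl7 (ENSMUSG00000035373) was at 1.20, 0.696, 0.988 and 0.904 CPM in HVCN1 null hearts and at 1.77, 0.618, 1.64 and 1.62 CPM in WT hearts. WT hearts 5, 7 and 8 were above all HVCN1 null hearts and WT heart 6 was below all of them, as it was for Ccl2. Its log2 fold change was -0.58 (SE 0.34, 95% interval -1.32 to 0.16, adjusted p = 0.610), the most negative of the 10 ligands. Ccl2 and Ccl7 came to 461 and 324 counts over all hearts, and their intervals are wide.

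Ccr2, the receptor of both, had 1.05, 1.04, 1.25 and 1.84 CPM in HVCN1 null hearts and 3.69, 2.26, 4.23 and 2.60 CPM in WT hearts. The groups did not overlap, and the log2 fold change was -1.30 (SE 0.27, edgeR quasi-likelihood adjusted p = 0.0527). Ccr2 was called by edgeR's exact test (adjusted p = 0.00206), its likelihood ratio test (0.00188) and DESeq2 (0.000987), and in the quasi-likelihood test with no filter (0.0302), with the atrial score in the model (0.0246) or without HVCN1 null heart 4 (-1.52, 0.0305). With the macrophage score in the model its log2 fold change was -1.22 (adjusted p = 0.174). Ccl12, a further Ccr2 ligand of the mouse, was not among the 10 genes and had the largest difference of the other ligands, with 0.450, 0.589, 0.456 and 0.113 CPM in HVCN1 null and 1.04, 0.834, 0.873 and 1.22 CPM in WT hearts. Its log2 fold change was -1.29 (SE 0.40, adjusted p = 0.217). Monocyte markers had a median log2 fold change of -0.05, with 0 of 5 called, beside 1.14% of all tested genes.

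Ccl8 (ENSMUSG00000009185), which in the mouse acts through Ccr8 and is made by macrophages, was called on the atrial score and not on genotype. HVCN1 null hearts had 1.71, 2.68, 3.08 and 0.933 CPM and WT hearts 2.15, 0.742, 2.80 and 0.777 CPM. The groups overlapped widely, and the log2 fold change was 0.36 (SE 0.48, 95% interval -0.71 to 1.42, edgeR quasi-likelihood adjusted p = 0.892). The 4 hearts highest in Ccl8, HVCN1 null hearts 2 and 3 and WT hearts 5 and 7, were the 4 with the highest atrial scores, and WT hearts 6 and 8 were lowest in both.

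In an edgeR model with genotype and the atrial score, Ccl8 rose by 0.21 (SE 0.04) on the log2 scale per unit of the score, with an adjusted p of 0.0335. It was the only ligand of the 10 called on this term, which called 2.19% of all tested genes. With each heart left out in turn the slope stayed between 0.19 and 0.22, and the call held in 4 of 8 fits, being lost without HVCN1 null heart 2 or WT heart 6, 7 or 8 (adjusted p = 0.0608, 0.153, 0.218 and 0.163). Cxcl16 came next, with a slope of 0.07 (SE 0.02, adjusted p = 0.180). Beside genotype in this model the log2 fold change of Ccl8 was 0.22 (adjusted p = 0.858), without WT hearts 6 and 8 it was -0.25 (adjusted p = 0.946), and with the macrophage score as a term it was 1.77 (adjusted p = 0.0368). The last was the only alternative that called Ccl8. As the macrophage score largely followed genotype, these terms are hard to tell apart in that fit. Adipocyte markers were lowest in WT hearts 6 and 8 too, with a summed CPM of 0.155 and 0.641 there and 0.991 to 26.9 in the other hearts. Epicardial markers had 10.1 and 5.94 CPM there and 7.38 to 50.3 CPM elsewhere, and the part of either list in the Ccl8 levels was not tested. Ccr8 had 1 count in all 8 hearts.

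**Figure D4:**
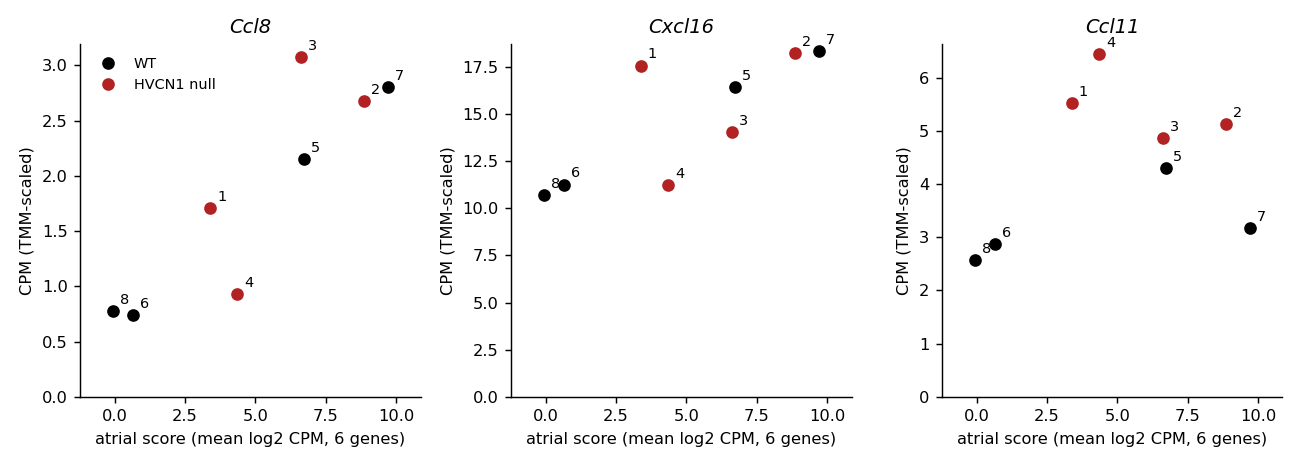
CPM of Ccl8, Cxcl16 and Ccl11 (vertical axes) against the atrial score, the mean log2 CPM of 6 atrial genes (horizontal axes), with 1 numbered point per heart (WT black, HVCN1 null red). Ccl8 is highest in hearts 2, 3, 5 and 7, which have the 4 highest scores, while for Ccl11 the 4 HVCN1 null hearts lie above the 4 WT hearts whatever their score.

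Of the 10 ligands, Ccl2, Ccl7, Ccl11, Ccl8, Ccl9 and Ccl6 lie, with Ccl12, in 2 groups of neighbouring genes on chromosome 11 (GRCm38). From the start of Ccl2 the starts of Ccl7, Ccl11, Ccl12 and Ccl8 follow at 10.1, 22.3, 66.3 and 79.6 kb. Ccl9 and Ccl6 lie 1537 and 1552 kb from Ccl2, with 9.25 kb between them. Neighbours in the group around Ccl2 had unlike values, with log2 fold changes of -0.15, -0.58, 0.76, -1.29 and 0.36 in this order, of which none passed the test. The adjacent pair Ccl9 and Ccl6 had like values of -0.52 and -0.43. Cxcl16 lies elsewhere on chromosome 11, and Ccl24, Cxcl12 and Cx3cl1 on chromosomes 5, 6 and 8.

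**Figure D5:**
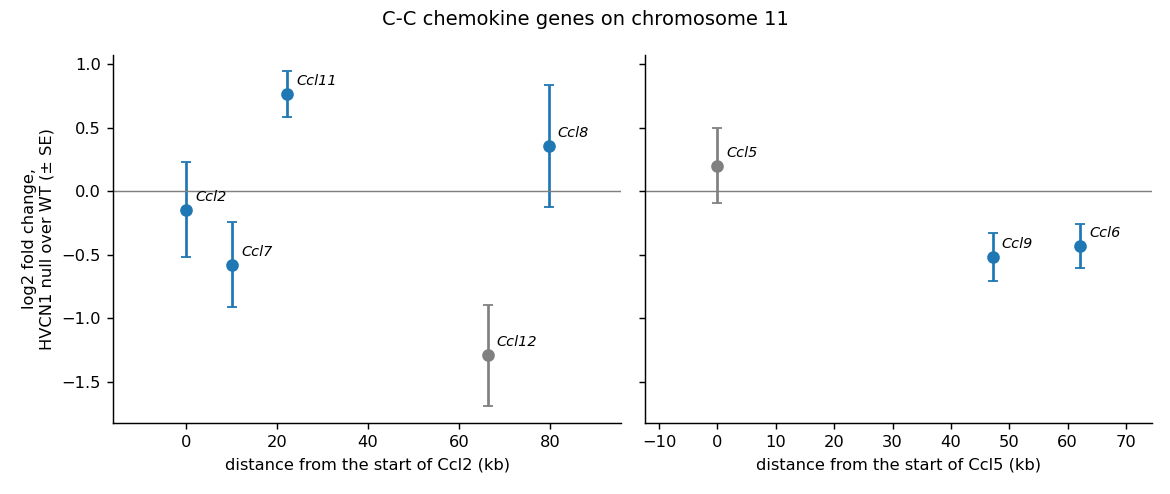
Log2 fold change of HVCN1 null over WT (± SE) of the tested C-C ligand genes on chromosome 11 against the distance in kb from the start of Ccl2 (left) or Ccl5 (right), with the 10 ligands in blue and Ccl12 and Ccl5 in grey. Ccl11 (0.76) lies between Ccl7 (-0.58) and Ccl12 (-1.29), and Ccl9 and Ccl6 lie at -0.52 and -0.43.

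Cxcl12 (ENSMUSG00000061353), the retention signal read by Cxcr4, was the ligand with the most reads, 61140 over all hearts. HVCN1 null hearts had 324, 206, 209 and 231 CPM and WT hearts 205, 223, 179 and 234 CPM. HVCN1 null heart 1 stood above all others, and the remaining hearts overlapped. It differed by a log2 fold change of 0.21 (SE 0.16, 95% interval -0.14 to 0.55, edgeR quasi-likelihood adjusted p = 0.757), and 0.03 without HVCN1 null heart 1.

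The receptors of Cxcl12 had opposite signs. Cxcr4 had 9.22, 6.31, 10.6 and 11.2 CPM in HVCN1 null hearts and 8.27, 7.20, 4.36 and 6.95 CPM in WT hearts, with overlap and a log2 fold change of 0.48 (SE 0.22, edgeR quasi-likelihood adjusted p = 0.471). Ackr3, the atypical receptor that takes up Cxcl12 and clears it, had 70.5, 64.8, 66.0 and 65.8 CPM in HVCN1 null hearts and 86.2, 98.7, 73.9 and 92.7 CPM in WT hearts. Its groups did not overlap, and the log2 fold change was -0.40 (SE 0.10, adjusted p = 0.115). At 20.0 and 26.2 RPKM in the 2 groups, Ackr3 was the most abundant of the tested receptors and near the level of Cxcl12 itself. It was called by DESeq2 (adjusted p = 0.0109) and without WT heart 7 (adjusted p = 0.0411). Without WT heart 6 the edgeR quasi-likelihood adjusted p was 0.350. Without WT hearts 6 and 8, the highest in Ackr3, the log2 fold change was -0.26 (edgeR quasi-likelihood adjusted p = 0.576). Endothelial cells are known to carry Ackr3. Their markers had a median log2 fold change of -0.13 with 0 of 8 called, beside 1.14% of all tested genes.

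The other atypical receptors showed smaller differences. Ackr2, which scavenges inflammatory C-C chemokines such as Ccl2 and Ccl11, had a log2 fold change of -0.19 (SE 0.36), Ackr4 one of 0.00 (SE 0.23) and Ccrl2, which presents chemerin rather than scavenging chemokines, one of -0.02 (SE 0.13), each with an edgeR quasi-likelihood adjusted p of at least 0.931. Ackr4 shares 479 exon bases with Acad11 on the opposite strand, which had 39733 counts over all hearts against 891 for Ackr4, so reads of this stretch may belong to either gene. Ackr1 had 69 counts over all hearts and was not tested.

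Cx3cl1 (fractalkine, ENSMUSG00000031778), made mainly by endothelial cells, is read by Cx3cr1 on monocytes and resident macrophages. HVCN1 null hearts had 16.0, 11.7, 17.9 and 16.2 CPM and WT hearts 20.4, 17.3, 17.9 and 18.0 CPM. HVCN1 null heart 3 lay within the WT range and the other HVCN1 null hearts below it. On the log2 scale the difference was -0.25 (SE 0.13, 95% interval -0.54 to 0.03, edgeR quasi-likelihood adjusted p = 0.531, exact permutation p = 0.0857). Over the 18 alternative fits it stayed between -0.33 and -0.14 and was never called.

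Cx3cr1 showed a larger difference than its ligand. It had 2.67, 2.68, 2.89 and 4.13 CPM in HVCN1 null hearts and 5.82, 4.82, 7.49 and 5.33 CPM in WT hearts, without overlap. Its log2 fold change was -0.92 (SE 0.19, edgeR quasi-likelihood adjusted p = 0.0561), and without HVCN1 null heart 4 it was -1.10 (adjusted p = 0.0250). Cx3cr1 was also called by edgeR's exact test (adjusted p = 0.00434), its likelihood ratio test (0.00397) and DESeq2 (0.00188), and in the quasi-likelihood test with no filter (0.0393) or with the atrial score in the model (0.0361). Like Ccr1 and Ccr2, Cx3cr1 is carried by monocytes and macrophages, and the macrophage marker values given above stand beside it too. With the macrophage score in the model its log2 fold change was -0.95 (adjusted p = 0.142).

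Cxcl16 (ENSMUSG00000018920) attracts T cells and natural killer T cells through Cxcr6 and, in its membrane form, takes up oxidised lipoprotein. HVCN1 null hearts had 17.6, 18.2, 14.0 and 11.2 CPM and WT hearts 16.4, 11.2, 18.3 and 10.7 CPM, an almost complete overlap with WT hearts 6 and 8 among the lowest. It differed by a log2 fold change of 0.10 (SE 0.20, 95% interval -0.35 to 0.56, edgeR quasi-likelihood adjusted p = 0.935), and it was -0.19 without these 2 hearts. With the macrophage score in the model it was 0.63 (adjusted p = 0.0977). Cxcl16 shares 552 exon bases with Zmynd15 on the opposite strand, which had 1534 counts over all hearts against 4056 for Cxcl16. Whether the authors counted by strand is not given in the sources used here, so reads of this stretch may belong to either gene. Cxcr6 had 79 counts over all hearts and was not tested. T cell markers had a median log2 fold change of 0.09 with 0 of 8 called, beside 1.14% of all tested genes.

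The proteases that release or trim these ligands gave 0 calls among 7 by any of the 5 tests run. By the quasi-likelihood test 1.14% of all tested genes were called. An unadjusted p under 0.05 was reached by 1 of the 7, beside 11.0% of all tested genes, and their median log2 fold change was -0.03. Adam10 and Adam17, which cut Cx3cl1 and Cxcl16 from the membrane, were at 0.10 (SE 0.12) and 0.16 (SE 0.12). Mmp12, a macrophage elastase that trims C-C chemokines, had the largest difference at -1.24 (SE 0.37, edgeR quasi-likelihood adjusted p = 0.190, groups without overlap). Mmp9, a gelatinase, was at -0.38 (SE 0.35) and rose with the atrial score (slope 0.15, SE 0.03, adjusted p = 0.0187, a term that called 2.19% of all tested genes).

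Cytokines and signalling genes that induce chemokines gave 0 calls by any of the 5 tests run among 9 tested of 13 in the table. By the quasi-likelihood test 1.14% of all tested genes were called. An unadjusted p under 0.05 was reached by 1 of the 9, beside 11.0% of all tested genes, and their median log2 fold change was -0.01. Il1b, which drives Ccl2 through NF-kB, was at -0.73 (SE 0.30, edgeR quasi-likelihood adjusted p = 0.392) and Il33, an alarmin, at -0.50 (SE 0.43). Il33, too, rose with the atrial score (slope 0.18, SE 0.03, adjusted p = 0.0219). Il4 and Il13, which act through STAT6 to induce eotaxins, had no count in any heart.

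Of 31 other chemokine ligands, 30 were in the table, 13 were kept for the test and 0 were called, with 9 negative and 4 positive log2 fold changes and a median of -0.25. An unadjusted p under 0.05 was reached by 3 of them, beside 11.0% of all tested genes, of which 1.14% were called, and of the other tests only edgeR's likelihood ratio test made a call, Ccl12. Beside Ccl12, Cxcl13, which draws B cells, was at -0.92, with an SE of 1.22. That value rested on single hearts, since HVCN1 null heart 2 had 3.58 CPM and WT heart 7 had 7.49 CPM while no other heart exceeded 0.709 CPM. It was -2.88 without HVCN1 null heart 2 and 1.71 without WT heart 7. Of these ligands 4 had no count in any heart. Of the other receptors, 3 of 11 were tested and none was called, with Cxcr2 at 0.61 (SE 0.47) and Cxcr5 at 0.54 (SE 0.56), the receptors of neutrophil-drawing C-X-C ligands and of Cxcl13. These were 0.17 for Cxcr2 without HVCN1 null heart 3 and 0.01 for Cxcr5 without HVCN1 null heart 4. Over all 15 lists of cell markers, the medians of the 14 with tested genes ran from -0.99 (erythroid) to 0.40 (mast cell), and the only marker called was Acta2 of smooth muscle and other mural cells, at 1.32 (SE 0.26, edgeR quasi-likelihood adjusted p = 0.0466). Of 18 alternative fits 8 called Acta2 and limma voom did not, and the adjusted p over all 18 ran up to 0.149. DESeq2 called Actc1, a muscle actin, as well.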

How the data were processed

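Poly-A RNA of 8 mouse hearts was sequenced as paired reads of 50 bases. The authors aligned the reads with STAR and counted Ensembl genes with featureCounts, per the study's methods. The submitters' processing notes name the same tools and the mouse builds GRCm38 and mm10, whereas the text of the methods names a human genome. The deposited values are these counts, raw and not normalized. The identifiers are mouse, and 38872 of 39056 genes matched GENCODE M21 by identifier without version, the source of symbols, exon lengths and positions.

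CPM values were computed from the counts with library sizes scaled by TMM in edgeR 4.0.16 (R 4.3.3). RPKM is this CPM per kilobase of merged exons. Low genes were removed by filterByExpr at its default settings. Groups were compared by edgeR's quasi-likelihood test on the whole table, with Benjamini-Hochberg adjustment over all tested genes, a threshold of 0.05 and no limit on the fold change. Every adjusted p named without another tool is from it. CPM was also compared by exact permutation (two-sided, 70 ways to assign the 8 hearts), with p not adjusted over the ligands. Alternatives used RLE or no scaling, either no filter or one at 1 CPM in 4 hearts, DESeq2 1.42.0, the exact test and the likelihood ratio test of edgeR, limma voom 3.58.1, atrial or macrophage scores as covariates, a threshold of 0.01 and each heart left out in turn. Fits without WT hearts 6 and 8 and the atrial term were added after seeing the data. Near copies were found with BLAST+ 2.17.0.

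The 10 ligands and the lists were chosen with earlier results of these data known. A gene of the receptor list is not reported here, though counts and medians include it. The genes named are the 10 ligands, Hvcn1, the other tested receptors of the ligands, and of each other list the called genes and the 2 with the largest absolute log2 fold change, for marker lists only where they stand beside a result. Adam10, Adam17, Il4, Il13 and the untested receptors were named after their values were seen. Each library is a separate animal, and the labels give no batch. Depth was 25851255 to 38874640 counts per heart.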

Additional observations from a re-analysis of the deposited data

Results flagged for a closer look

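The genes named above, with CPM values in groups of 4 hearts, were screened for single hearts that lay apart. A value was singled out when its gap to the nearest other heart passed Dixon's limit as a share of the range of the group, which chance gives in about 1 in 20 groups. Each gene was screened in both groups, so a few such values can arise by chance. The lowest WT value of Ccl7, 0.618 CPM in heart 6, lay apart from the other WT hearts, with a gap of 0.869 of the range. The highest HVCN1 null value of Cx3cr1, 4.13 CPM in heart 4, lay apart from the other HVCN1 null hearts, with a gap of 0.852 of the range. Cxcl13 was highest at 3.58 CPM in HVCN1 null heart 2 and at 7.49 CPM in WT heart 7, with gaps of 0.903 and 0.924 of the range in their groups. The highest HVCN1 null value of Il1b was 1.94 CPM in heart 3, with a gap of 0.847 of the range.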

How the results depend on the processing

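No paired analysis was possible because HVCN1 null hearts are numbered 1 to 4 and WT hearts 5 to 8. Of the 14796 tested genes, 169 were DEGs, and 367 with edgeR's exact test, 376 with its likelihood ratio test, 466 with DESeq2, 56 at an adjusted p under 0.01, 43 without WT hearts 6 and 8 (chosen after seeing the data) and 71 (without WT heart 6) to 152 with each heart left out. Among the 10 ligands, 0 were DEGs, and 1 with edgeR's exact test, its likelihood ratio test, DESeq2 or the macrophage score, and 0 to 1 with each heart left out. Among the receptors, 2 were DEGs, and 4 with no filter, the exact test, the likelihood ratio test or the atrial score, 5 with DESeq2, 1 with voom or without WT hearts 6 and 8, 0 with the macrophage score or at an adjusted p under 0.01, and 0 to 2 with each heart left out.

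Of 190 ligand log2 fold changes under the alternatives, 177 kept their sign and side of the threshold, 5 passed it and 8 turned sign. Of 171 receptor values, 19 turned sign. The ligands and receptors that turned sign were genes with a main log2 fold change between -0.19 and 0.36. Without WT hearts 6 and 8, Ccl8 was at -0.25, Cxcl16 at -0.19, Ackr4 at -0.11 and Ccrl2 at 0.0040. With the macrophage score, Ccl24 was at 0.36, Ackr2 at 0.47, Cxcl13 at 1.80, Mmp9 at 0.31 and Il33 at 0.81, and Cxcl13 ran from -2.88 to 1.71 with each heart left out. Ackr4 was at -0.0016 with the CPM filter, -0.00064 with the exact and likelihood ratio tests, -0.068 with voom and -0.0138 with the atrial score, and Ccrl2 at 0.0205 without scaling. With each heart left out, log2 fold changes ran from -0.44 to 0.0351 for Ccl2, -0.23 to 0.12 for Ccl24, -0.0015 to 0.25 for Cxcl16, -0.60 to 0.0051 for Ackr2, -0.20 to 0.16 for Ackr4 and -0.15 to 0.0543 for Ccrl2. The difference in mean CPM, HVCN1 null minus WT, ran from -0.567 to 0.0477 for Ccl2, -0.340 to 0.152 for Ccl24 and -0.0719 to 2.47 for Cxcl16. On the log2 CPM scale the Ccl2 difference was 0.0141. With 1 heart left out the exact permutation test cannot go below 0.0571, so the Ccl11 difference of CPM cannot pass there. The cause of these changes was not tested.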
